A study of Rattus norvegicus with 19 samples.

Results

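The genes described here are the 9 circadian clock genes Per1, Per2, Per3, Cry1, Cry2, Clock, Dbp, Nr1d1 and Nr1d2, 9 of the 14217 genes named on a whole-genome rat array, measured by 17 of its 31042 probe sets. Every probe set annotated with one of these symbols and no other was taken, and 0 probe sets annotated with several symbols listed any of them. RNA came from 2 hypothalamic nuclei, the supraoptic (SON) and the paraventricular (PVN), of untreated male rats labelled as 12 weeks old. The groups were the SON of SHR, the inbred spontaneously hypertensive strain (4 arrays), the SON of WKY, its inbred normotensive Wistar Kyoto comparison strain (5 arrays), the PVN of SHR (5 arrays) and the PVN of WKY (5 arrays). The strains differ across the whole genome, so no single allele separates them. Nuclei were dissected by hand from thick slices and pooled, and each array was read here as 1 pool, so that p-values describe the spread between pools and not between rats. The rats were killed during the light phase over several hours, and the time behind each array is not given in the sources used here.

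The circadian clock is a feedback loop of transcription present in most cells. CLOCK, or its relative NPAS2, pairs with BMAL1 and binds E-box sequences in the Per, Cry, Dbp and Nr1d genes, and the PER and CRY proteins then enter the nucleus and hold back that pair. NR1D1 and NR1D2, the nuclear receptors also called REV-ERB alpha and beta, repress Bmal1 through ROR response elements, and DBP drives genes through D-box sequences. The master clock lies in the suprachiasmatic nucleus, next to the SON and PVN, and it sends projections to the PVN. In many tissues Per1 also responds quickly to glucocorticoids and to cAMP signalling.

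Upstream sequence is shown for the genes on which the results turned, Per1 and Per3, and for Per2 and Nr1d1, whose windows held clock motifs. Each window is taken from RefSeq (GRCr8) and runs from 250 bases before to 50 bases after a start site. Capitals mark an E-box (CACGTG), an E'-box (CACGTT) or a D-box (TTATGTAA or TTACGTAA), on either strand. Per1 lies at chr10:54304126-54304425 (+ strand), Per3 at chr5:166777751-166778050 (- strand), Per2 at chr9:99496944-99497243 (- strand), and Nr1d1 has windows at chr10:84231763-84232062 and chr10:84229405-84229704 (- strand).
Per1: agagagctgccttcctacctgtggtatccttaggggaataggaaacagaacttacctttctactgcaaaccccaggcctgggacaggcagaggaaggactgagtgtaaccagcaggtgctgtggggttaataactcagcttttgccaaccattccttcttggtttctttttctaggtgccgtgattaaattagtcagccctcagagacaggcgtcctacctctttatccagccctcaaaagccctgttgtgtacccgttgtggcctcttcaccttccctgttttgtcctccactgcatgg
Per3: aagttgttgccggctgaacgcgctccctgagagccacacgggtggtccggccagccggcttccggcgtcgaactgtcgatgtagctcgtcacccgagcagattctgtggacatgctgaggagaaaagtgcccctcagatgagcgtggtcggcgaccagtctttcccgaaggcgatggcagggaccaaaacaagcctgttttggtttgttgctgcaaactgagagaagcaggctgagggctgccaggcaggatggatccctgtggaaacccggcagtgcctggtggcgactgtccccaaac
Per2: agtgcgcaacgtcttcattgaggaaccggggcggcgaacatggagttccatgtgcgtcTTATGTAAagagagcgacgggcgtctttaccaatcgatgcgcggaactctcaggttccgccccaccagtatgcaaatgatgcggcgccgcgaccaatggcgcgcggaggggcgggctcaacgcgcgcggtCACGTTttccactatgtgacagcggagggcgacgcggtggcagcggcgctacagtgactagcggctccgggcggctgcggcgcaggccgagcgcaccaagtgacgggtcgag
Nr1d1 window 1: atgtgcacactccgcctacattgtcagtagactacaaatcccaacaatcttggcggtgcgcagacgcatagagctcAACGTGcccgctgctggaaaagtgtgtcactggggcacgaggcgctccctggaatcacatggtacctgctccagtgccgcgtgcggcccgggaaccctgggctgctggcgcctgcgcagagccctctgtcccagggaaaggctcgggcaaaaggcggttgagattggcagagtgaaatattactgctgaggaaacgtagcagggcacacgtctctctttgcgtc
Nr1d1 window 2: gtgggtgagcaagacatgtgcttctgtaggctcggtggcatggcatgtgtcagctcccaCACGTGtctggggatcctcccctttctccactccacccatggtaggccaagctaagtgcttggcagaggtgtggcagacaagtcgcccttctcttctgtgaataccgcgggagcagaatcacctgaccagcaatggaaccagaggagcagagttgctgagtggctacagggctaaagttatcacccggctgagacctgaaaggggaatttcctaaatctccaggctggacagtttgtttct

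Of the 9 genes 8 had at least 1 window, 10 windows in all, and Cry1 had none in the table. The Per2 window held an E'-box at -62 and a D-box at -192, counted from the start site to the leftmost base of the motif. An E'-box stood at -212 in the Cry2 window and at -174 in the first Nr1d1 window, and an E-box at -191 in the second Nr1d1 window. No motif searched was found in the windows of Per1, Per3, Clock, Dbp or Nr1d2, which says only that these letters are not in those windows. Among 33469 promoter windows of the same length, 6.42% held an E-box, 4.83% an E'-box and 1.01% a D-box. The ROR response element (0.481%), the cAMP response element (TGACGTCA, 1.83%) and its core (TGACGT, which also lies within the full element, 7.94%) were found in 0 of the 10 windows.

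Signals were scaled to a common median and put on a log2 scale, with values below 1.91 set to that floor. Array medians were 35.9 to 46.5 before scaling, and the share of values at the floor was 8.33% to 10.6%. Mean correlation with the other arrays of the same group was lowest for SON WKY array 3 (0.929) and PVN SHR array 4 (0.947) and at most 0.968. Of the 8 markers of the nuclei, Avp and Oxt, hormones of both, lay above 11.9 in every group mean, while the transcription factors Otp (2.30 to 2.57) and Pou3f2 (at the floor on every array) were too dim to test. Crh averaged 4.08 in SON SHR and 5.07 in SON WKY, and 8.74 in PVN SHR and 9.14 in PVN WKY. Sim1, a transcription factor of both nuclei, was lower in SHR than in WKY in the SON (6.54 against 7.51, adjusted p = 0.00964) and in the PVN (6.19 against 7.12, adjusted p = 2.82e-05). Genes of astrocytes, oligodendrocytes, microglia and endothelium gave 0 calls between strains in either nucleus. Of the suprachiasmatic markers, Vip stayed between 4.21 and 4.62 and Six3 between 1.91 and 2.44 in the 4 group means, and both were too dim to test. Others were brighter: Cck averaged 7.91 to 9.12 and Gpr176 7.19 to 7.61 in the 4 groups. Grp averaged 4.06 in SON SHR and 4.11 in SON WKY, but 6.33 in PVN SHR and 7.34 in PVN WKY. Six6 averaged 2.56 and 2.87 in the SON of SHR and WKY, and 5.51 and 5.74 in the PVN. As these are pieces of tissue, fewer cells of a type and less RNA per cell cannot be told apart.

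A probe set was tested where at least 1 of the groups compared averaged at or above the middle of all probe sets, and 11 of the 17 clock probe sets passed in each comparison, at least 1 for each gene. The 6 dim ones, a further probe set each of Per2, Per3, Cry2 and Nr1d2 and 2 of Clock, averaged between 2.24 and 3.09 over the 19 arrays, near the floor. They were not tested, and the tested probe sets are therefore not all members. Their counts below cover probe sets that were bright in at least 1 group. Nr1d2 and Clock had 2 tested probe sets each. Those of Nr1d2 varied together (r = 0.88 over 19 arrays with group means removed), and those of Clock hardly did (r = 0.16), so the Clock results are given per probe set.

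**Figure D1:**
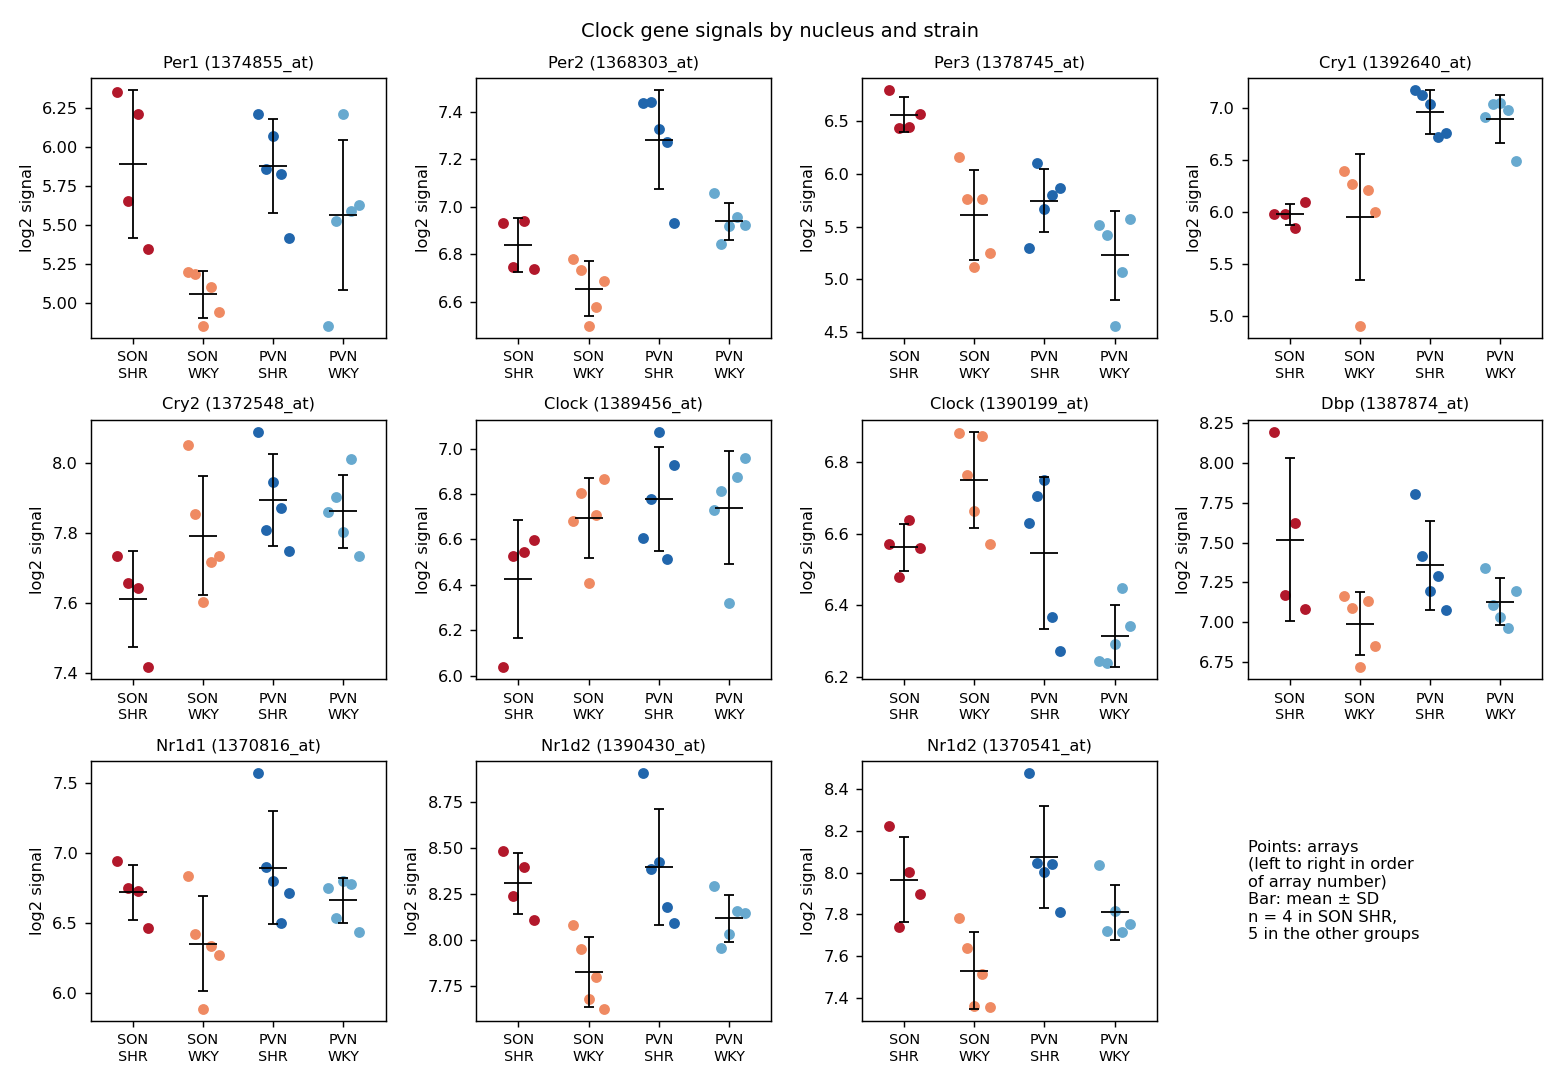
Log2 signal of the 11 tested clock probe sets (y axis, scale differs by panel) in SON SHR (4 arrays), SON WKY, PVN SHR and PVN WKY (5 arrays each), with each array as a point and the mean and SD as bars. Per1 and Per3 of all SON SHR arrays lie above those of all SON WKY arrays, and Cry1 lies lower in the SON than in the PVN in both strains.

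The strains were first compared within the SON. Per1 and Per3, 2 of the 3 Period genes whose proteins repress CLOCK-BMAL1, were higher in SHR, by 0.84 and 0.95 on the log2 scale. No clock probe set was called lower, and the differences were positive for 8 of the 11 tested and negative for 3. The 2 called of 11 tested make 18.2%, all higher, where 3.63% of 16164 probe sets were called in this comparison, 1.29% higher and 2.33% lower. Neither difference reached 2-fold, where 0.767% of probe sets were both called and at or past 2-fold. The median difference was 0.37 over the 11 probe sets and -0.04 over all probe sets tested.

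Per1, the Period gene known for quick responses to stimuli (probe set 1374855_at), read 6.35, 5.65, 6.21 and 5.34 in SON SHR, against 5.20, 5.18, 4.85, 5.10 and 4.94 in SON WKY. SON SHR arrays 1 and 3 were high and array 4 was closest to WKY, and the strains did not overlap. SHR averaged 5.89 ± 0.47 (SD, n = 4), WKY 5.05 ± 0.15 (SD, n = 5), and the strains differed by 0.84 (SE 0.19, 1.78-fold, limma adjusted p = 0.0316). Its WKY mean lay below the filter level of 5.32, so Per1 entered the test only through SHR, the group where it was high, and a filter asking for that level in both strains left it untested.

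Per3 (1378745_at), a Period gene that mice can lack with little loss of rhythm, read 6.80, 6.43, 6.45 and 6.57 in SON SHR. In SON WKY it read 6.16, 5.76, 5.12, 5.76 and 5.25, and the lowest SHR array stood above the highest WKY array. The difference was 0.95 (SE 0.19, 1.93-fold, limma adjusted p = 0.0178). Per2 (1368303_at), a Period gene that the mouse clock depends on, averaged 6.84 ± 0.11 in SON SHR (SD, n = 4) and 6.65 ± 0.12 in SON WKY (SD, n = 5), a difference of 0.18 (95% interval -0.03 to 0.40, adjusted p = 0.341).

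The genes of the other output arms had smaller differences that did not pass. Nr1d2 read 8.48, 8.24, 8.39 and 8.11 in SON SHR, against 8.08, 7.95, 7.68, 7.79 and 7.62 in SON WKY, again without overlap but with array 4 of SHR just above array 1 of WKY. Its 2 probe sets differed by 0.48 (adjusted p = 0.0533) and 0.44 (adjusted p = 0.0840). Groups did not overlap for 3 of the 11 probe sets (Per1, Per3 and this one of Nr1d2), where 9.84% of all probe sets did not.

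Dbp, the D-box activator (1387874_at), read 8.20, 7.17, 7.62 and 7.08 in SON SHR and 7.17, 7.09, 6.72, 7.13 and 6.85 in SON WKY. Its difference of 0.53 (SE 0.20, adjusted p = 0.177) was 0.30 without SHR array 1, and SHR arrays 2 and 4 lay within or just at the WKY range. Nr1d1 averaged 6.72 ± 0.20 in SON SHR (SD, n = 4) and 6.35 ± 0.34 in SON WKY (SD, n = 5), a difference of 0.37 (95% interval 0.00 to 0.73, adjusted p = 0.252). The repressor Cry1 differed by 0.02 (95% interval -0.52 to 0.57), with SON WKY array 3 far below the other WKY arrays. Cry2 differed by -0.18 (adjusted p = 0.419), and the 2 probe sets of Clock, the activator itself (1389456_at and 1390199_at), by -0.27 and -0.19 (adjusted p = 0.309 and 0.321), the first being -0.14 without SON SHR array 1. Unadjusted p was under 0.05 for 6 of the 11, where 19.3% of all probe sets had such a p.

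The calls of Per1 and Per3 rested on few arrays. Without SON SHR array 1 neither passed (Per1 0.68, adjusted p = 0.0741, and Per3 0.87, adjusted p = 0.0531), and Per1 also missed the threshold without SON SHR array 3 (adjusted p = 0.10) or SON WKY arrays 2, 4 or 5 (adjusted p = 0.0548, 0.0714 and 0.0608). Neither passed when dim probe sets were tested too (adjusted p = 0.134 and 0.101) or by the methods' t-test (adjusted p = 0.245 and 0.114).

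**Figure D2:**
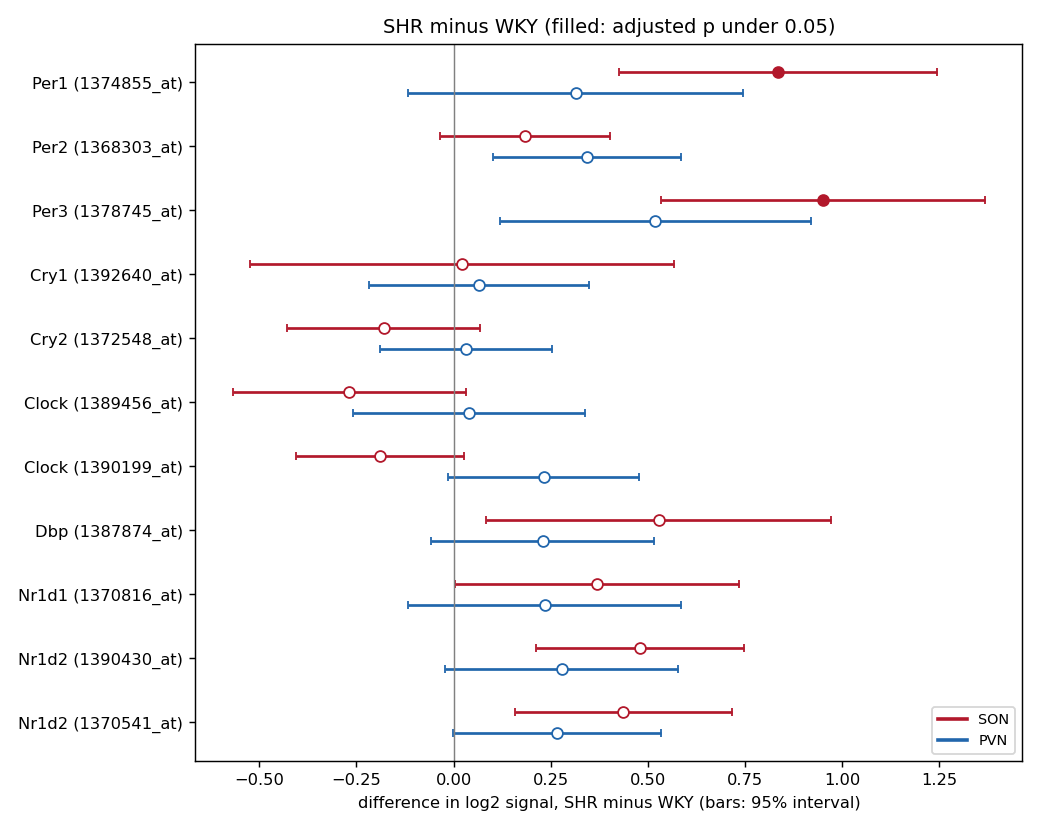
Difference in log2 signal between SHR and WKY (x axis, 95% interval as bars) for each tested clock probe set, in the SON (upper marker of each pair) and the PVN (lower marker). Only Per1 and Per3 in the SON are filled, at 0.84 and 0.95, and all 11 PVN differences lie at or right of 0.03.

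Other measured values moved with the strain in the SON. The 10 listed genes of the meninges, the membranes that touch the SON at the base of the brain, were all tested there, and 3 of the 10 were higher in SHR: Dcn (8.28 against 7.24), Lum (8.53 against 7.54) and Crabp2 (8.10 against 7.06), with adjusted p of 0.0481, 0.0290 and 0.0171. The median difference of the 10 was 0.53. None of the 10 was near the floor in either SON group, and Slc6a13 and Col1a1 were the dimmest in SON WKY at 7.05 and 6.83. Their mean level was 9.47, 8.54, 9.03 and 8.11 in SON SHR arrays 1 to 4 and 8.23, 8.25, 7.73, 8.20 and 8.36 in SON WKY arrays 1 to 5. Per1 took the same order over the SON SHR arrays (1, 3, 2, 4) as these genes, and Per3 took another (1, 4, 3, 2). In SON WKY the order of Per1 (1, 2, 4, 5, 3) was not that of the meningeal genes (5, 2, 1, 4, 3). SON SHR array 4, whose meningeal level lay below that of WKY arrays 1, 2, 4 and 5, read 5.34 for Per1 and 6.57 for Per3, above every WKY array. The part of meningeal tissue in the Per1 and Per3 differences was not tested.

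**Figure D3:**
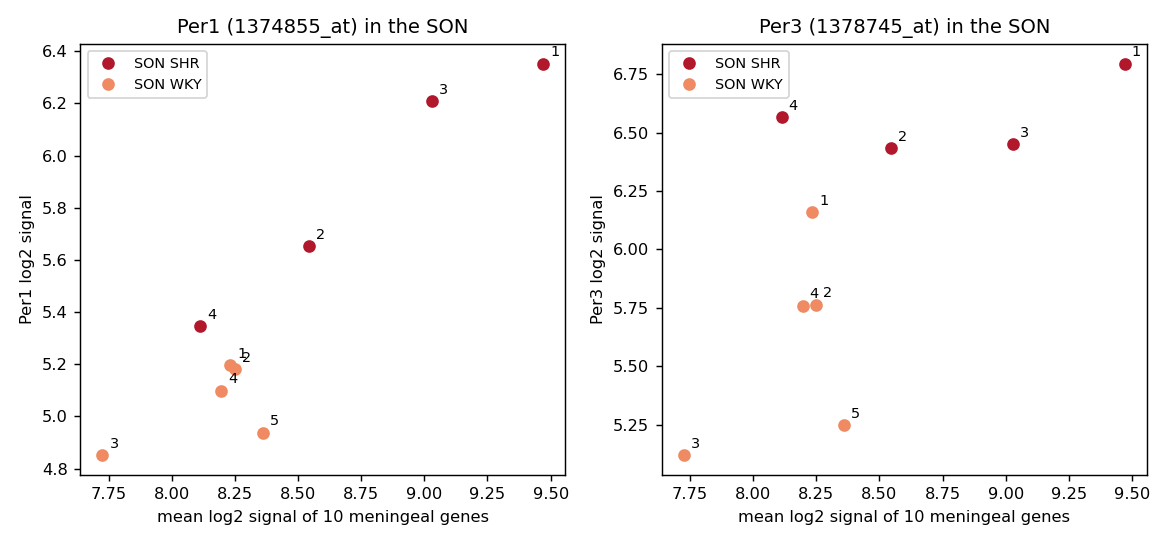
Per1 (left) and Per3 (right) log2 signal in the SON against the mean log2 signal of 10 meningeal genes (x axis), 1 point per array, with the array number beside it, for SON SHR (4 arrays) and SON WKY (5 arrays). Meningeal levels run from 8.11 to 9.47 in SON SHR and from 7.73 to 8.36 in SON WKY.

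Glucocorticoid-induced genes, chosen because Per1 is one itself, gave 0 calls among 8 tested in the SON, with a median difference of 0.22. Their mean level, over the 9 genes on the array, ranged from 7.04 to 7.57 in SON SHR and from 6.83 to 7.17 in SON WKY, and SON SHR array 1 was the highest. Klf9, which is also a clock output, differed by 0.51 (adjusted p = 0.15) and Sgk1, a kinase, by 0.56 (adjusted p = 0.202). Immediate early genes, which mark recent activity, gave 0 calls among 5 tested, with a median difference of -0.25, and Fos differed by -0.61 (adjusted p = 0.373). The part of glucocorticoids or of neuronal activity in the Per1 difference was not tested. Suprachiasmatic markers averaged 4.23 to 4.65 in SON SHR and 4.35 to 4.96 in SON WKY, with 7 of the 9 on the array too dim to test, and Cck was lower in SHR (7.91 against 8.54, adjusted p = 0.0154).

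In the PVN the same comparison called 0 of the 11 clock probe sets, where 2.34% of 16135 probe sets were called. All 11 differences were positive, between 0.03 and 0.52, with a median of 0.23 against -0.04 over all probe sets. Unadjusted p was under 0.05 for 2 of the 11, against 13.5% of all probe sets. For 0 of the 11 were the strains without overlap, against 4.37%.

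Per3 had the largest of these differences, 0.52 (SE 0.19, adjusted p = 0.211), and entered the test only through SHR. It read 5.30, 6.10, 5.67, 5.80 and 5.87 in PVN SHR and 5.52, 5.42, 4.56, 5.07 and 5.57 in PVN WKY. SHR array 1 lay below 3 of the WKY arrays and the other 4 SHR arrays lay above all WKY arrays. Per2 read 7.44, 7.44, 7.33, 7.27 and 6.93 in PVN SHR and 7.06, 6.84, 6.92, 6.96 and 6.92 in PVN WKY, and 4 of 5 SHR arrays stood above every WKY array. Its difference of 0.34 (SE 0.11, adjusted p = 0.166) passed when arrays were weighted by their quality (0.36, adjusted p = 0.0389) or kept as deposited (0.38, adjusted p = 0.0421).

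Per1 was more scattered in the PVN: 6.21, 5.86, 6.07, 5.82 and 5.42 in SHR and 4.85, 5.52, 6.21, 5.59 and 5.63 in WKY. Its groups overlapped widely and the difference was 0.31 (95% interval -0.12 to 0.75, adjusted p = 0.558). Nr1d2 differed by 0.28 and 0.27 by its 2 probe sets, Nr1d1 by 0.23 and Dbp by 0.23, with adjusted p from 0.374 to 0.606. PVN SHR array 1 was the highest PVN array for Nr1d1 (7.57), Nr1d2 (8.90) and Dbp (7.81), and without it the differences were 0.15 and 0.17 for Nr1d2, 0.066 for Nr1d1 and 0.12 for Dbp. Clock differed by 0.04 and 0.23, Cry1 by 0.07 and Cry2 by 0.03. Meningeal genes stood at 5.04 to 5.33 in PVN SHR and 5.01 to 5.17 in PVN WKY. Of the ependymal genes 2 of 5 were higher in PVN SHR, Tekt1 by 0.47 and Ak7 by 0.48. Among the listed suprachiasmatic markers 2 of 5 tested were lower, Grp (6.33 against 7.34) and Cck (8.57 against 9.12). Cck, unlike Grp, was also bright in the SON, at 7.91 in SON SHR and 8.54 in SON WKY. The part of meningeal, ependymal and suprachiasmatic tissue in the PVN values was not tested. Glucocorticoid-induced genes gave 0 calls among 8 tested (median 0.13), and activity genes 0 among 6 (median -0.35).

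Whether the strain difference itself depended on the nucleus was tested in a fit of all 4 groups. The interaction, the SON strain difference less the PVN one, was called for 0 of the 11 probe sets, where 0.0819% of 17095 were called. It was 0.52 for Per1 (95% interval -0.12 to 1.17, adjusted p = 0.807) and 0.43 for Per3 (95% interval -0.19 to 1.05, adjusted p = 0.835), so the larger SON values of these genes were not shown to differ from those in the PVN. The smallest p was that of Clock probe set 1390199_at, at -0.42 (SE 0.15, adjusted p = 0.560), the only 1 of the 11 with an unadjusted p under 0.05, against 6.85% of all.

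The nuclei were then compared within each strain. These comparisons used the same arrays as the strain comparisons. Cry1, a strong repressor of CLOCK-BMAL1 whose transcript peaks late in the cycle (1392640_at), was lower in the SON in both strains, by 0.98 in SHR and 0.94 in WKY. Per2 was also lower in both, by 0.44 and 0.28. In SHR 4 of the 11 probe sets were called (1 higher and 3 lower), where 29.4% of 17095 were (13.7% higher and 15.7% lower). In WKY 3 were called (1 higher and 2 lower), where 26.9% were (13.2% higher and 13.7% lower). Groups did not overlap for 3 of the 11 in each strain, against 23% and 21.9% of all probe sets. Neither share stands far from that of all genes, and 0 of the 11 both passed and reached 2-fold, where 5.65% of all probe sets did in SHR and 4.91% in WKY.

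Cry1 read 5.98, 5.99, 5.85 and 6.10 in SON SHR and 7.17, 7.13, 7.04, 6.72 and 6.76 in PVN SHR. In WKY it read 6.39, 6.27, 4.91, 6.22 and 6.0 in the SON and 6.92, 7.04, 7.05, 6.98 and 6.50 in the PVN. Every SON array was below every PVN array of its strain. The differences were -0.98 in SHR (SE 0.22, adjusted p = 0.00172) and -0.94 in WKY (SE 0.20, adjusted p = 0.00165), that is 1.98-fold and 1.92-fold lower, and the interaction was -0.04 (95% interval -0.66 to 0.58). SON WKY array 3 widened the spread, and without it the WKY difference was -0.68.

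Per2 averaged 6.84 in SON SHR and 7.28 in PVN SHR (-0.44, SE 0.11, adjusted p = 0.00334), and 6.65 in SON WKY and 6.94 in PVN WKY (-0.28, SE 0.10, adjusted p = 0.0391). The WKY call was lost without any of 7 of the 10 WKY arrays (PVN arrays 1, 3, 4 and 5 and SON arrays 3, 4 and 5), with adjusted p up to 0.0938. Per3 took the opposite direction, higher in the SON: 6.56 ± 0.17 in SON SHR (SD, n = 4) and 5.75 ± 0.30 in PVN SHR (SD, n = 5), a difference of 0.81 (SE 0.22, adjusted p = 0.00725) with no overlap. In WKY it averaged 5.61 in the SON and 5.23 in the PVN (0.38, adjusted p = 0.174). Per1 did not pass in either strain, at 0.01 in SHR and -0.51 in WKY (adjusted p = 0.973 and 0.0824).

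Cry2 read 7.73, 7.66, 7.64 and 7.42 in SON SHR, below the lowest PVN SHR array at 7.75. It was lower by 0.28, just inside the threshold (adjusted p = 0.0496), and this call was kept in 7 of 20 other settings. In WKY it differed by -0.07 (adjusted p = 0.643). Clock probe set 1390199_at read 6.88, 6.76, 6.66, 6.87 and 6.57 in SON WKY and 6.24, 6.24, 6.29, 6.45 and 6.34 in PVN WKY, without overlap, a difference of 0.44 (SE 0.10, adjusted p = 0.00262). In SHR it differed by 0.02, and the other Clock probe set by -0.35 in SHR and -0.04 in WKY, neither called. The gene is thus higher in the SON of WKY by 1 of its 2 tested probe sets only. Dbp, Nr1d1 and Nr1d2 did not pass in either strain, with differences from -0.31 to 0.16.

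**Figure D4:**
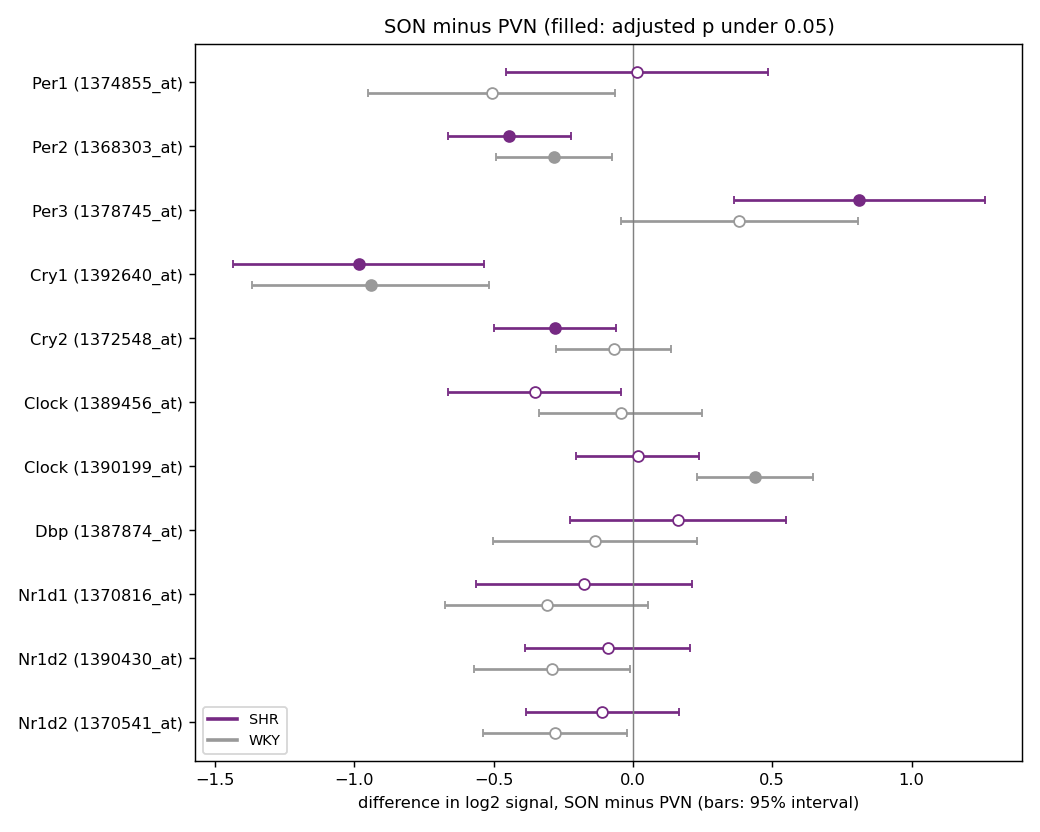
Difference in log2 signal between SON and PVN (x axis, 95% interval as bars) for each tested clock probe set, in SHR (upper marker of each pair) and WKY (lower marker), filled where the adjusted p was under 0.05. Cry1 lies near -1 in both strains, at -0.98 and -0.94, and Per3 lies to the right of 0.

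Set in order of level, the groups ran differently for different genes. Per3 was highest in SON SHR (6.56), followed by PVN SHR (5.75), SON WKY (5.61) and PVN WKY (5.23). SON SHR stood above PVN SHR by the test, and the array ranges of the other groups overlapped. Per1 was level in SON SHR (5.89) and PVN SHR (5.88), then PVN WKY (5.56), and lowest in SON WKY (5.05), where only SON SHR against SON WKY passed. For Cry1 the order was PVN SHR (6.96), PVN WKY (6.90), SON SHR (5.98) and SON WKY (5.96), with neighbours of the same nucleus not told apart. Per2 was highest in PVN SHR (7.28), then PVN WKY (6.94), SON SHR (6.84) and SON WKY (6.65), and Nr1d2 likewise stood highest in PVN SHR (8.40) and lowest in SON WKY (7.82).

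The rest of the clock gave few strain calls. Of the activators, Bmal1, the partner of CLOCK, and Npas2 were tested and neither passed between strains, with differences from -0.20 to -0.09. The E-box repressors Bhlhe40 and Bhlhe41 gave 0 calls, and so did the D-box genes that were tested. Of these, Hlf, a relative of Dbp, differed by 0.49 in the SON (adjusted p = 0.116). The D-box gene Nfil3 was not tested between strains in the SON, where its means lay below the filter level. It averaged 4.30 in SON SHR (SD 0.10) and 5.31 in SON WKY (SD 0.28). In the PVN Nfil3 was tested and differed by -0.36 (adjusted p = 0.29). Kinases and ubiquitin enzymes listed as acting on clock proteins gave 0 of 7 in the SON and 0 of 8 in the PVN. Btrc, a ligase subunit that marks PER for destruction, was closest at -0.41 in the SON (adjusted p = 0.0517). The ROR receptors on the array were too dim to test. Among 6 output genes tested, 0 were called in the PVN and 1 in the SON, where Nampt, an enzyme of NAD synthesis, averaged 7.12 in SON SHR and 7.72 in SON WKY (adjusted p = 0.0137).

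Between nuclei more of these genes passed, as did more of all probe sets (29.4% in SHR and 26.9% in WKY). Bmal1 was lower in the SON in both strains, at 5.71 in SON SHR against 6.25 in PVN SHR and 5.86 in SON WKY against 6.34 in PVN WKY (adjusted p = 0.00126 and 0.00227), and Npas2 by 0.49 and 0.52 (adjusted p = 0.0118 and 0.00604). Bhlhe41 was lower in both strains, by 0.38 and 0.36. Nfil3, which opposes DBP at D-boxes, was lower by 1.03 in SHR (adjusted p = 4.54e-05) and had a difference of -0.39 in WKY (adjusted p = 0.0571). Its SON means (4.30 in SHR and 5.31 in WKY) lay below the filter level of 5.32, so Nfil3 entered these tests only through the PVN, where it was higher. Of the 8 kinases and ubiquitin enzymes tested, 5 were lower in SHR and 3 in WKY, and 0 were higher. Usp2, counted as lower in both strains, was bright enough only in the PVN. Meningeal genes were higher in the SON for 10 of 10 in both strains (median 3.65 and 3.11), and the ciliated ependymal genes lower for 5 of 5. These counts depend on the filter: only 3 of the 10 meningeal genes (Igf2, Igfbp2 and Ogn) were also bright enough in the PVN. Only 3 of the 5 ependymal genes were also bright enough in the SON, and Ak7 and Rsph1 were not. Tekt1 was so in SON SHR only (5.69, against 5.21 in SON WKY). Of the 9 suprachiasmatic markers on the array 5 were tested, of which 4 were lower in the SON in both strains, but Grp, Six6 and Lhx1 of these were bright enough only in the PVN. Lhx1 was so in PVN SHR only (5.43, against 5.20 in PVN WKY). Among the untested, Prok2 read higher in the SON, at 4.49 in SON SHR, 4.07 in SON WKY, 2.06 in PVN SHR and 2.80 in PVN WKY. The part of tissue content in the differences between nuclei was not tested.

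Within the groups the clock genes varied together in part. With group means removed, the 36 pairs of the 9 genes, each taken by its brightest probe set, had a median r of 0.40 over 19 arrays, with 12 pairs above 0.5 and 7 below 0. The 6 pairs among Per2, Dbp, Nr1d1 and Nr1d2, picked here for their high values, lay between 0.61 and 0.84, and Nr1d1 with Nr1d2 was the highest. That range did not set these genes apart, since some pairs of E-box targets with a Cry gene lay in it or just under it. Examples are Cry2 with Nr1d1 (0.80), Cry2 with Nr1d2 (0.74), Cry1 with Nr1d1 (0.67) and Per2 with Cry2 (0.60). Further pairs of E-box targets were lower, such as Per1 with Per3 (-0.26), Per3 with Nr1d1 (0.03) and Cry1 with Dbp (0.30). Clock, which oscillates little in most tissues, had r from -0.41 to 0.31 with the other genes. Per1 followed Dbp in the SON (r = 0.93 over 9 arrays) and not in the PVN (r = 0.06 over 10 arrays), and Per3 followed Nr1d1 in the SON (r = 0.85) with r = -0.58 in the PVN. These values describe arrays that share a scaling and an array design, and with 9 or 10 arrays they are loose.

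The arrays that stood high or low did so for several clock genes at once. Of Per1, Per2, Per3, Dbp, Nr1d1 and Nr1d2, SON SHR array 1 was the highest of its group for 5 of 6, SON WKY array 1 for 6 of 6, PVN SHR array 1 for 4 of 6 and PVN WKY array 1 for 3 of 6. SON SHR array 4 was the lowest for 5 of 6, SON WKY array 3 for 5 of 6 and PVN SHR array 5 for 4 of 6. The mean deviation of the 6 genes from their group means ran from -0.26 to 0.31 in SON SHR, -0.29 to 0.29 in SON WKY and -0.24 to 0.28 in PVN SHR, but only from -0.04 to 0.04 in PVN WKY. In PVN WKY the extremes of single genes lay on different arrays: array 1 was the lowest for Per1 and array 3 the highest for Per1 and the lowest for Per3. Array medians before scaling were 35.9 in PVN SHR array 1, against 46.5 and 44.5 in arrays 4 and 5. In SON SHR they were 41.3 in array 1 and 42.9 in array 4, and in SON WKY 39.1 in array 1 and 43.5 in array 3. The PVN WKY medians ran from 38.4 to 41.6. The part of scaling in these deviations was not tested. Array numbers come from the labels and were not found to pair samples.

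**Figure D5:**
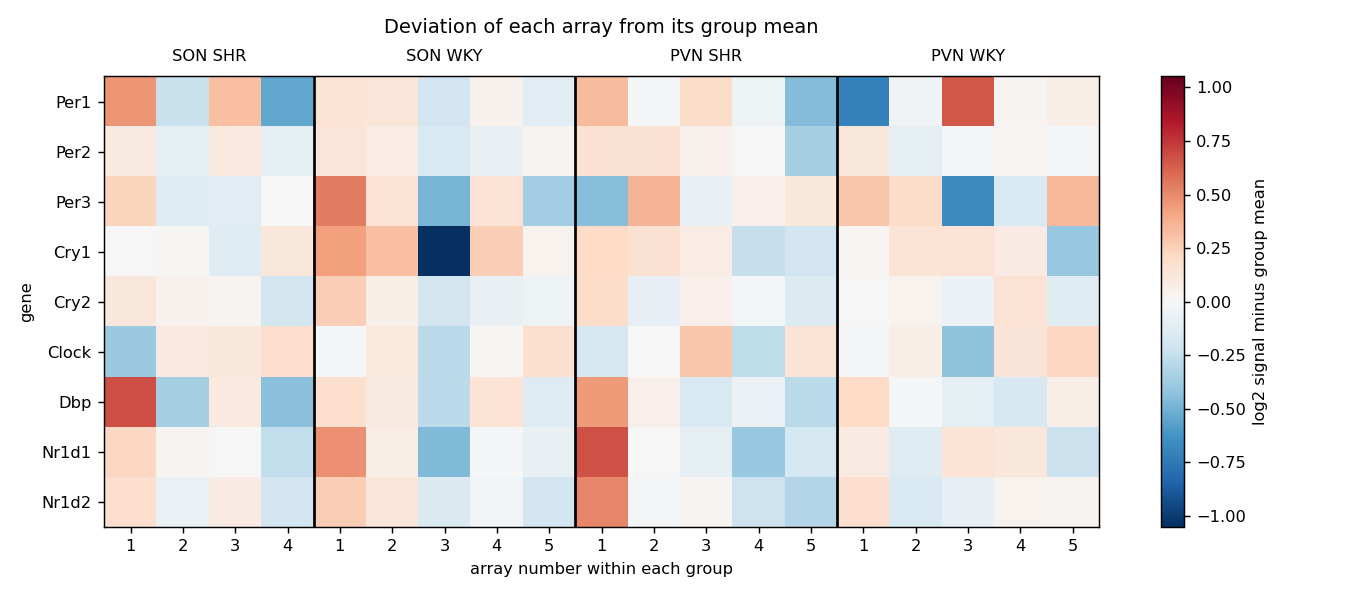
Deviation of log2 signal from the group mean (colour, red above and blue below) for the 9 clock genes (rows, brightest probe set of each) in the 19 arrays (columns, numbered within SON SHR, SON WKY, PVN SHR and PVN WKY). Array 1 of SON SHR, SON WKY and PVN SHR is red for most of Per1, Dbp, Nr1d1 and Nr1d2, and the darkest blue cell is Cry1 in SON WKY array 3.

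The other genes whose signals were most like those of the clock genes were ranked by Pearson r over the 19 arrays with group means removed. To the mean of the same 6 genes, the closest were Ss18 (r = 0.94), Por (0.91), Fasn (0.90), Pdzrn3 (0.90) and Itpr1 (0.89). Ss18 is a chromatin remodelling subunit, Por the electron donor of cytochrome P450 enzymes, Fasn the fatty acid synthase and Itpr1 a calcium channel of the endoplasmic reticulum. Closest to Per1 were Sh2b3 (0.87), Tbc1d10a (0.86) and Fkbp10 (0.85), and closest to Dbp were Psap (0.92), Eva1b (0.89) and Rdx (0.89). For Clock they were Pdcd11 (0.84), Mtf2 (0.82) and Nsd2 (0.82). These are the highest values among all tested probe sets, chosen for their size, and no test was made of them.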

How the data were processed

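Total RNA of pooled SON and PVN was amplified once, labelled and hybridised to Affymetrix rat arrays. The deposited values are intensities, MAS 5.0 signals made by the authors from the scans on a linear scale and normalised by array, per the submitters' processing notes and methods. Their later GeneSpring normalisation and present calls were not used here, and the methods' t-test was run as an alternative only. Precision is limited by 4 or 5 arrays per group.

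From the 31099 probe sets, 57 controls were removed. Each array was scaled to a common median, signals below 3.76 (the 10th percentile) were raised to it, and log2 was taken. A probe set was tested if 1 or more of the groups compared averaged at or above the median probe set. Of the rest, 20826 carried 1 symbol in the platform annotation, 436 several and 9780 none, with symbols updated through Entrez numbers to RefSeq GRCr8. Strains were compared within each nucleus, and nuclei and the interaction in a fit of all 4 groups, with limma 3.58.1 (lmFit, eBayes; R 4.3.3), two-sided, Benjamini-Hochberg over all probe sets tested, and a call at an adjusted p under 0.05 without a fold limit. Fits were tested on simulated data. A gene in a list stands for its probe set of highest mean. All clock probe sets are named, other listed genes where called between strains or as examples chosen after their values were seen, and similar genes by highest r. The clock genes and the lists were chosen with earlier results of these data known. Alternatives covered scaling, filter, floor, samples, weights, test, fold limit and each array left out.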

Additional observations from a re-analysis of the deposited data

Results flagged for a closer look

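Among 44 groups of values (11 tested clock probe sets in 4 groups), 3 held an array far from the others, where chance alone gives about 1 in 20 such groups. Cry1 in SON WKY array 3 read 4.91, the next lowest array of the group being at 6.0. The same array had the lowest correlation with its group (0.929). Cry1 in PVN WKY array 5 read 6.50, with the next lowest array at 6.92. Clock probe set 1389456_at in SON SHR array 1 read 6.04, with the next lowest at 6.52. The causes were not tested.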

How the results depend on the processing

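The count of clock probe sets called between strains in the SON was 2. It became 4 with quantile normalization, with values as deposited and with a trend and robust moderation (the 2 Nr1d2 probe sets added), 1 with a stricter filter, which left Per1 untested, and 0 with no filter on dim probe sets, with the methods' t-test and with either test under a 2-fold limit. With the replicate number as a block it was 1 (Per1 0.81, adjusted p = 0.0820). The numbers were not taken as pairs, since deviations of same-numbered arrays correlated between -0.226 and 0.174. The block left 0 calls between strains in the PVN, 3 between nuclei in SHR and 3 in WKY, and 0 for the interaction. Leaving out 1 array at a time gave 0 to 3 calls. In the PVN 0 became 1 (Per2) with values as deposited and with arrayWeights, and stayed 0 without any 1 array. Between nuclei in SHR, 4 became 2 with the stricter filter and 0 with the 2-fold limit under either test, and was 3 to 4 without 1 array. In WKY, 3 became 5 with quantile normalization, 6 with values as deposited and 0 with the 2-fold limit under either test, and was 2 to 3 without 1 array. The interaction gave 0 in all settings run.

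Per1 and Per3 passed between strains in the SON in 11 of 19 and 17 of 20 other settings. Between nuclei Cry1 passed in 20 of 20 in SHR and 20 of 21 in WKY (not by the methods' t-test, adjusted p = 0.0754), and Per2 in 20 of 20 and 13 of 21. No called difference turned. Small ones did: with arrayWeights Cry2 in the PVN strain comparison became -0.0085, Cry1 in the SON -0.23 and Clock 1390199_at between nuclei in SHR -0.049. Cry1 in the SON was -1.68e-05 with log2(value + 16). With the block, Per1 between nuclei in SHR was -0.10 and Clock 1390199_at -0.052. Without both arrays that correlated least with their group, a setting chosen after seeing the data, Cry1 in the SON was -0.24, Clock 1390199_at between nuclei in SHR -0.028, Clock 1389456_at in WKY 0.026 and the interaction of Nr1d1 -0.080. With 1 array left out, the ranges that crossed 0 were, in the PVN, Cry1 -0.035 to 0.13, Cry2 -0.018 to 0.068 and Clock 1389456_at -0.064 to 0.11, and, in the SON, Cry1 -0.24 to 0.13. Between nuclei in SHR they were Per1 -0.14 to 0.20, Clock 1390199_at -0.052 to 0.068, Dbp -0.064 to 0.31 and Nr1d2 1390430_at -0.17 to 0.037. In WKY, Clock 1389456_at ran from -0.15 to 0.026, and the interaction of Cry1 from -0.31 to 0.065. The causes were not tested.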
